A study of Mus musculus with 21 samples.

Results

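The genes described are the mouse zinc finger protein genes whose symbol is Zfp followed by a number. Members were taken as every gene named in that form in any of the 3 deposited tables, a choice that used names and no measured value, and this gave 295 of the 12404 genes listed. The table of mouse embryonic fibroblasts (MEFs) held 249 of them among 11152 genes, the table of reprogramming cells without vitamin C held 235 among 10723, and the table with vitamin C held 293 among 12021. All 3 tables listed 230 of them. Every listed gene reaches 32 in 2 or more libraries of its table. Of the 2 media, the 58 members listed with vitamin C (Vc+) and not without it (Vc-) met that minimum in Vc+ only. They enter no comparison between media, and 17 of them were also listed in MEFs.

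RNA was sequenced from 21 libraries of ICR mouse MEFs, taken from 13.5-day embryos at passage 2, and of cells reprogrammed from them. The reprogramming cells, called SKOM in the labels, had received retroviruses for Oct4, Klf4, c-Myc and Sox2 and were harvested at day 5, in medium with vitamin C (Vc+) or without it (Vc-). In each SKOM medium the added retroviral constructs were Tet1CD, Tet1CD+Dmnt1 (so spelled), Tet1CD+shDnmt1, Dnmt1, shDnmt1 and shp53+shDnmt1, with Flag+shLuc as control. MEFs received Tet1-CD, Dnmt1, shDnmt1, shp53 or shp53+shDnmt1, with Flag+shLuc as control. The MEF table also held 1 library labelled 5C with Flag+shLuc, a code that the labels do not explain. Its column header, X5CDay4, names a day, which the headers of the MEF libraries do not. Infection with the constructs lasted 48 hours, all cultures carried retroviral sequence, and each combination had 1 library. Tet1 oxidises 5-methylcytosine (CD usually stands for its catalytic domain), Dnmt1 is the maintenance DNA methyltransferase, shDnmt1 and shp53 are hairpins against Dnmt1 and the p53 gene Trp53, and shLuc is a hairpin against luciferase. Nothing in the labels says whether the libraries are from independent cultures, and the spread behind each p-value is that between these libraries, which may be technical.

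Most Zfp proteins carry tandem C2H2 zinc fingers, each of which folds around a zinc ion and reads a few bases of DNA. Many join these fingers to a KRAB box, which binds the corepressor Trim28 and through it recruits the H3K9 methyltransferase Setdb1 and HP1 proteins, and such proteins silence retroelements and keep DNA methylation at imprinted genes in embryonic cells. Some genes with a Zfp symbol instead encode RNA-binding CCCH finger proteins, and others work as transcriptional cofactors, in ribosome quality control or in mitosis.

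The labelled constructs could be checked only in part. With Tet1CD, Tet1 was at 2503 to 3129 in Vc+ and 2140 to 2632 in Vc- cells, against 41 to 88 and 11 to 19 without it. Dnmt1 was lower in every library with shDnmt1 than in the control of its table, but it did not rise in libraries labelled Dnmt1 (2381 in Vc+ and 1001 in Vc-, against 2346 and 984 with Flag+shLuc), so these are called libraries labelled Dnmt1. Values had been normalized before deposit and carry no sequencing depth. Of 7 fibroblast markers 6 or 7 were listed in each table, while none of Nanog, Esrrb, Dppa5a, Zfp42 and Utf1, markers of pluripotent cells, was listed in any table.

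Reading frames of the annotated transcripts (GENCODE M21) were available for 294 members. The C2H2 pattern occurred a median of 10 times per protein, 166 members had at least 10 copies, and Zfp142 had the most, with 37. A KRAB motif was found in 145 members and not in 149, and a motif search of this kind misses divergent boxes such as that of Zfp57. Members with the motif had a median of 12 fingers, against 7 in those without. No C2H2 pattern was found in Zfp36, Zfp330, Zfp365, Zfp503, Zfp703, Zfp750, Zfp839 and Zfp935. The genes lay in clusters: chromosome 7 held 68 members, chromosome 17 held 39 and chromosome 13 held 29. Zfp genes resemble each other in sequence, which bears on how far reads can be assigned: 130 of the 295 shared no 50-base word of their transcripts with another gene, 45 shared at least 10% of their words and 9 at least 50%. Zfp708 and Zfp935 shared all of theirs, Zfp534 70.4%, Zfp955a 52.0%, Zfp808 46.4%, Zfp932 45.2%, Zfp93 20.7%, Zfp28 16.01%, Zfp7 14.5%, Zfp874b 14.2%, Zfp384 13.1% and Zfp141 11.7%, and values of these members are uncertain for that reason.

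Promoter sequences of 6 members are shown because Tet1 acts on cytosine methylation, whose main substrate is the CpG pair; 3 are from genes that were higher with Tet1CD in Vc+ medium and 3 from genes that were lower. Each runs from 250 bases before to 50 after the RefSeq start (GRCm38.p6), 5′ to 3′ on the gene's strand, with every CG in capitals. Zfp651 has 46 CpG pairs (chr9:121759783-121760082, plus strand), Zfp697 has 19 (chr3:98382231-98382530, plus strand) and Zfp809 has 11 (chr9:22225462-22225761, plus strand), and these 3 were higher.
Zfp651: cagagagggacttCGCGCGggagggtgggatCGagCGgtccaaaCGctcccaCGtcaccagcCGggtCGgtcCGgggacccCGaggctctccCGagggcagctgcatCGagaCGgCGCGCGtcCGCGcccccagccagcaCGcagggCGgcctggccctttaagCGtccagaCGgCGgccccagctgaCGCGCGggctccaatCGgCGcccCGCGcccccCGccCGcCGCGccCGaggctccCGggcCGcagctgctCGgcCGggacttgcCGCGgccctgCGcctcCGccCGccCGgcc
Zfp697: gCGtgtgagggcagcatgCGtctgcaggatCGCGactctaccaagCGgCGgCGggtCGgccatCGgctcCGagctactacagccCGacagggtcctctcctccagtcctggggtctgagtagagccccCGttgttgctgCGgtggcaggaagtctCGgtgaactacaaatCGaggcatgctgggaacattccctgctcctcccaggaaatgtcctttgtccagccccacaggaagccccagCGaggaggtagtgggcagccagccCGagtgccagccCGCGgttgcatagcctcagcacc
Zfp809: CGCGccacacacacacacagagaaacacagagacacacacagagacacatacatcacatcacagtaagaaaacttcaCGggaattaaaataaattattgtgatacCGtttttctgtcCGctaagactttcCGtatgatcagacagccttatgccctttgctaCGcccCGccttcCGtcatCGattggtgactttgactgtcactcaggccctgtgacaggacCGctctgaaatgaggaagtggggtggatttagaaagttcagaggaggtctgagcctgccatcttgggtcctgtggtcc
Among those that were lower, Zfp292 has 30 pairs (chr4:34882899-34883198, minus strand), Zfp296 has 19 (chr7:19577037-19577336, plus strand) and Zfp141 has 13 (chr7:42505704-42506003, minus strand).
Zfp292: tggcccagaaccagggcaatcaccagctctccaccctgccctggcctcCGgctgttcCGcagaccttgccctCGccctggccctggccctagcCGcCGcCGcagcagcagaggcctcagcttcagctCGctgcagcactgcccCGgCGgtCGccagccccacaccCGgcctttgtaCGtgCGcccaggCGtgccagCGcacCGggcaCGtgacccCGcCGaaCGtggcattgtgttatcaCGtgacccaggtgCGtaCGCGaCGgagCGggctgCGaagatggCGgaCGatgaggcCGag
Zfp296: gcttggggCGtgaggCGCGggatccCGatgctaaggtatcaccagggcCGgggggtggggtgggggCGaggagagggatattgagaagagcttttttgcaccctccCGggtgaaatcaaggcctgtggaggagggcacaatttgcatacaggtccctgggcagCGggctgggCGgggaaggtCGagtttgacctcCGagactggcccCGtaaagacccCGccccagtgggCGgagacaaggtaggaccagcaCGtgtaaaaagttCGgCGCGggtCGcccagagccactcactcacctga
Zfp141: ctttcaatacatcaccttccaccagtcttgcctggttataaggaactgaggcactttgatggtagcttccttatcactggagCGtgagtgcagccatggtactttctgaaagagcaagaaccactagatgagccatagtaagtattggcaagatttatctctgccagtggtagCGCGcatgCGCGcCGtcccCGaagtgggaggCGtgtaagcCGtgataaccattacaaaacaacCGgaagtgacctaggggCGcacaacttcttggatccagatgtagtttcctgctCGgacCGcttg
The range within each direction was wide. Of the 8751 genes with a promoter in this set, 97.3% had as many or fewer CpG pairs than Zfp651, and 18.5% had as many or fewer than Zfp809.

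A RefSeq promoter within 1000 bases of the annotated start was found for 211 members. They had a median of 16 CpG pairs in the 300 bases, against 21 over all 8751 genes, and a median GC content of 56.3% against 61.7%. Members with a KRAB motif had a median of 11 pairs (n = 106) and members without it 21 (n = 105). Among members grouped by their Tet1CD result in Vc+ medium, the median was 17 pairs for the 41 that fell, 19 for the 8 that rose and 15 for the 161 without a call. Over all genes the medians were 23 for those that fell, 19 for those that rose and 22 without a call. The order of fallen and risen genes was thus the other way round. The E-box letters CACGTG, which read the same on both strands, occurred in 7.58% of the members' promoters and in 10.3% of all promoters; a match describes letters and not a bound site.

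Zfp genes were expressed at low levels. Per kilobase of the longest annotated transcript, the median member had a value of 29.3 in Vc+ cells, against 66.3 for all genes, 24.7 against 51.7 in Vc- cells and 24.1 against 60.1 in MEFs (the 6 libraries other than 5C). Only 52 of 293, 35 of 235 and 32 of 249 members lay above the median of all genes on that scale. The scale assumes that values were not already adjusted for length, which the sources do not say. Without division by length, the median member had a mean value of 107.9 in Vc+ cells, 89.9 in Vc- cells and 96 in MEFs. The medians of all genes were 230.9, 182.1 and 212.2. Zfp207 (also BuGZ), which binds Bub3 at kinetochores, was the highest, at 1030 per kilobase in Vc+ cells, 499 in Vc- cells and 643 in MEFs. Zfp146 followed with 360 per kilobase in Vc+ cells, then Zfp385a with 299.6, a p53 cofactor, and Zfp106 with 265, an RNA-binding protein. The other members among the 10 highest in Vc+ cells were Zfp664, Zfp384, Zfp706, Zfp598, Zfp91 and Zfp362, between 163 and 233 per kilobase.

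In Vc+ cells, more Zfp genes fell than rose with Tet1CD. Of the 293 members, 64 fell and 12 rose (limma, adjusted p under 0.05 over all genes), which is 21.8% and 4.10% of them, whereas 23.6% of all 12021 genes fell and 20.7% rose. The share that fell was thus near the background and the share that rose was below it. The median log2 change was -0.25 in members and -0.07 over all genes, and 238 of 293 members lay below 0. Among 4172 other genes with mean values between the members' quartiles (52.6 to 223), 934 fell and 862 rose, with a median of -0.06. Changes are given on the scale of log2(value + 5), which understates those of low genes. The minimum of 32 in 2 libraries bears on these counts: 11 of the 64 that fell met it only through libraries without Tet1CD, against 0 of the 12 that rose that met it only through libraries with Tet1CD. Such members had to be lower with Tet1CD to some degree, and 53 of the 64 met the minimum in both groups.

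The same shift can be seen in the library sums. Zfp genes made up 0.723%, 0.776% and 0.79% of the summed value in the Vc+ libraries with Tet1CD, Tet1CD+Dmnt1 and Tet1CD+shDnmt1, against 0.878% to 0.949% in the 4 without Tet1CD. The median member had a value of 91, 100 and 104 with Tet1CD, against 110 to 119 without it, while the median of all genes was 226 in each of the 7. All 3 libraries with Tet1CD lay below all 4 without it for 112 members (38.2%, against 31.3% of all genes) and above them for 13 (4.44%, against 24.96%).

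**Figure D1:**
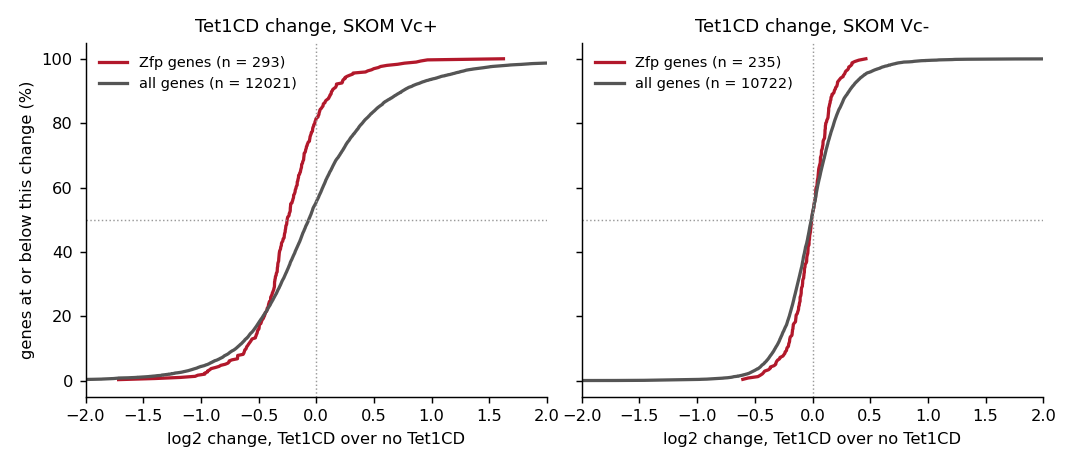
Cumulative share of genes (vertical axis, percent) by the log2 change with Tet1CD (horizontal axis), in Vc+ SKOM cells on the left and Vc- SKOM cells on the right, for Zfp members and for all genes tested. In Vc+ cells the curve of the members lies left of that of all genes, with medians of -0.25 and -0.07, and in Vc- cells both medians are -0.01.

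Other measured features moved with Tet1CD in the same Vc+ libraries. The summed value of 3 proliferation markers (Mki67, Top2a and Ccnb1, 3 of 3 listed) was 2223 to 5049 with Tet1CD against 8289 to 11335 without it. Listed macrophage markers (Ptprc, Cd68, Laptm5 and Lyz2, 4 of 8, with Csf1r, Adgre1, Tyrobp and Fcer1g not listed) summed to 1952 to 2614 against 293 to 369. The epithelial markers Cdh1, Epcam and Krt8 (3 of 4 listed) summed to 360 to 406 against 580 to 1176, and the 7 fibroblast markers to 39642 to 45530 against 26913 to 44738. In such bulk RNA, fewer cells of a type and less RNA per cell cannot be told apart, and the part of these differences in the Zfp values was not tested.

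The members that rose in Vc+ cells included several that are not classical DNA-binding zinc finger proteins. In the values that follow, libraries with Tet1CD come in the order Tet1CD, Tet1CD+Dmnt1 and Tet1CD+shDnmt1, and libraries without it in the order Flag+shLuc, Dnmt1, shDnmt1 and shp53+shDnmt1. Zfp750 (chromosome 11, 121510978 to 121519333, minus strand, mm10), a regulator of epidermal differentiation, had values of 170, 151 and 121 with Tet1CD, against 37, 46, 50 and 36 without it. The 3 libraries with Tet1CD were all more than 2-fold above the other 4, and the change was 1.62 ± 0.19 on the log2 scale (SE, adjusted p = 0.00171), the only rise of at least 2-fold among members. Zfp697 (chromosome 3, 98382461 to 98753812, plus strand) had values of 137, 152 and 141 against 79, 65, 79 and 54. The groups did not overlap, and the change was 0.91 ± 0.14 (adjusted p = 0.00362).

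Zfp703 (chromosome 8, 26977325 to 26981461, plus strand) and Zfp503, transcriptional cofactors of the same small family, both rose. Zfp703 had values of 201, 255 and 306 with Tet1CD, against 144, 126, 136 and 99 without it. Zfp503 had values of 336, 299 and 335, against 219, 213, 221 and 193. In both genes the lowest library with Tet1CD was above the highest without it, with changes of 0.87 ± 0.15 (adjusted p = 0.00604) and 0.56 ± 0.09 (adjusted p = 0.00508). Zfp36 (chromosome 7, 28376784 to 28380253, minus strand), known as tristetraprolin, a CCCH finger protein that promotes decay of mRNAs with AU-rich elements, had values of 373, 344 and 428, against 210, 222, 234 and 145. Its groups did not overlap either, and it changed by 0.76 ± 0.10 (adjusted p = 0.00219).

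Of the DNA-binding members that rose, Zfp651 had values of 397, 398 and 366 with Tet1CD, against 275, 234, 246 and 247 without it (0.61 ± 0.10, adjusted p = 0.00438). Zfp809, a KRAB protein that recruits Trim28 to the proline primer binding site of murine leukaemia viruses, had values of 53, 54 and 69, against 39, 34, 29 and 29 (0.71 ± 0.21, adjusted p = 0.0356), close to the minimum of the table. Both genes had separate groups. Zfp93 had values of 107, 105 and 116 against 64, 71, 88 and 95 and changed by 0.54 ± 0.13 (adjusted p = 0.0173). The other 4 that rose were Zfp365 (0.50), Zfp52 (0.48), Zfp9 (0.43) and Zfp385a (0.32).

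Of the 8 members with the most negative changes, 7 met the minimum of 32 in 2 libraries only through the libraries without Tet1CD (Zfp41, Zfp804a, Zfp493, Zfp296, Zfp184, Zfp647 and Zfp775). Their falls and the gaps between their groups are partly set by that listing, and their values are given as a description. Among the 64 that fell, Zfp41 (chromosome 15, 75616679 to 75629827, plus strand) had the most negative change. It had values of 25, 46 and 20 with Tet1CD, against 102, 115, 100 and 164 without it. Every library with Tet1CD was below 50 and every other at 100 or more, and the change was -1.71 ± 0.19 (adjusted p = 0.00155). Zfp804a, whose human counterpart lies at a schizophrenia risk locus, had values of 9, 21 and 37 against 50, 77, 57 and 53 and changed by -1.40 ± 0.30 (adjusted p = 0.0128). Zfp493 had values of 14, 23 and 7 against 38, 35, 38 and 40, with a change of -1.18 ± 0.31 (adjusted p = 0.0260). The libraries with Tet1CD were the lowest of both genes, and they spread more than the others.

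Zfp292, which met the minimum in both groups (chromosome 4, 34803113 to 34882960, minus strand) had values of 155, 361 and 349 with Tet1CD, against 560, 627, 510 and 625 without it. The library with Tet1CD alone was below the other 2 of its group, the groups did not overlap, and the change was -1.05 ± 0.24 (adjusted p = 0.0153). Zfp296 (chromosome 7, 19577287 to 19580656, plus strand), a partner of Klf4 that aids reprogramming, had values of 31, 37 and 21 against 56, 73, 65 and 71 and changed by -1.03 ± 0.20 (adjusted p = 0.00828). Zfp184, Zfp647 and Zfp775 fell by 0.97, 0.94 and 0.94 on the log2 scale, and all their values with Tet1CD were at or below 28, against 32 or more in the other libraries.

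Several members that fell were at higher levels and had smaller relative spread. Zfp7 (chromosome 15, 76879259 to 76892395, plus strand) had values of 199, 178 and 221 with Tet1CD, against 349, 380, 377 and 370 without it (-0.88 ± 0.11, adjusted p = 0.00182). Zfp422 had values of 272, 293 and 242 against 449, 521, 435 and 569 (-0.79 ± 0.09, adjusted p = 0.00152), and Zfp141 had values of 117, 145 and 129 against 222, 239, 290 and 361 (-0.91 ± 0.12, adjusted p = 0.00219). Zfp207, the highest member, had values of 3088, 2556 and 2055 against 3448, 4157, 3734 and 4592, and it changed by -0.57 ± 0.14 (adjusted p = 0.0212). In these 4 genes no library with Tet1CD reached the lowest of the others.

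**Figure D2:**
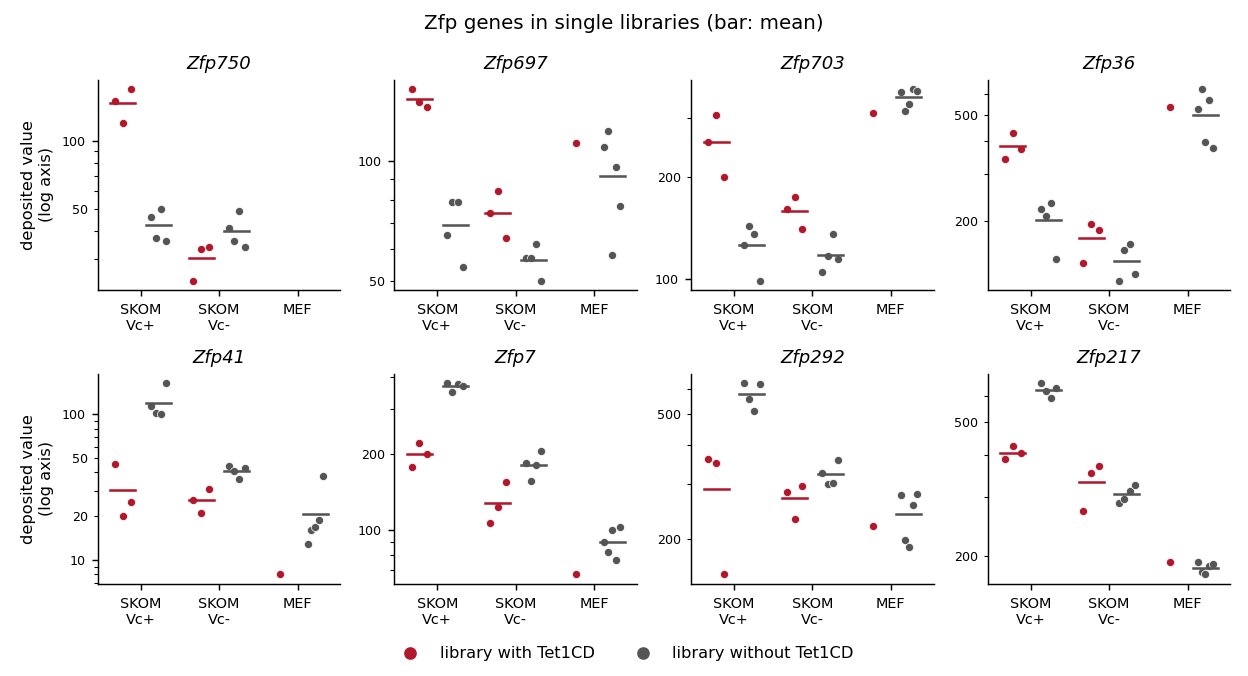
Deposited value of each library (log axis) for 4 members that rose and 4 that fell with Tet1CD in Vc+ medium, with libraries carrying Tet1CD in red on the left and libraries without it in grey on the right, for SKOM Vc+, SKOM Vc- and MEF, and a bar at each mean. In Vc+ the red and grey points of all 8 genes are apart, as in Zfp41 (20 to 46 against 100 to 164). Zfp750 is not listed in the MEF table.

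These counts depended on single libraries more than the direction did. Each fit of the Vc+ table had 2 residual degrees of freedom, and 1 when a library of the matched pairs was left out. Without the library labelled Dnmt1 10 members fell and 5 rose, without Tet1CD+Dmnt1 11 fell and 3 rose, without Flag+shLuc 25 fell and without Tet1CD 27 fell. Here and in later counts with a single library left out, the counts over all genes are not given. A loss of calls among members therefore cannot be told from a loss over the whole table. With both libraries that carry a Dnmt1 label left out, a choice made after the data were seen, 11 members fell and 5 rose (1076 and 1175 of all genes), and Zfp292, Zfp296, Zfp36, Zfp41, Zfp493, Zfp503, Zfp697, Zfp703 and Zfp750 kept their calls while Zfp184, Zfp647, Zfp651, Zfp775, Zfp804a, Zfp809 and Zfp93 lost theirs. Over every alternative run with all 293 members, between 225 and 241 of them lay below 0.

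Members with and without a KRAB motif both leaned down. Of 144 with the motif 23 fell and 3 rose (median log2 change -0.27), and of 148 without it 41 fell and 9 rose (median -0.22). The standard error of the change was larger in members with the motif (median 0.16 against 0.12), which were at lower levels, so the lower share called is not by itself a smaller change. Related families gave counts on the same scale: of 36 Zbtb genes 11 fell and 5 rose (median -0.19), and of 16 Zscan and Zkscan genes 4 fell and 0 rose (median -0.27). By position, 13 of the 67 tested members on chromosome 7 fell and 2 rose, on chromosome 17 it was 5 and 1, and on chromosome 13 it was 3 and 0. Of the 10 on chromosome 18, none with a KRAB motif, 6 fell, whereas 0 fell of the 5 on chromosome 16 and the 2 on chromosome 19. All these counts are read against the 23.6% of all genes that fell and the 20.7% that rose. Those of single chromosomes are small.

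**Figure D3:**
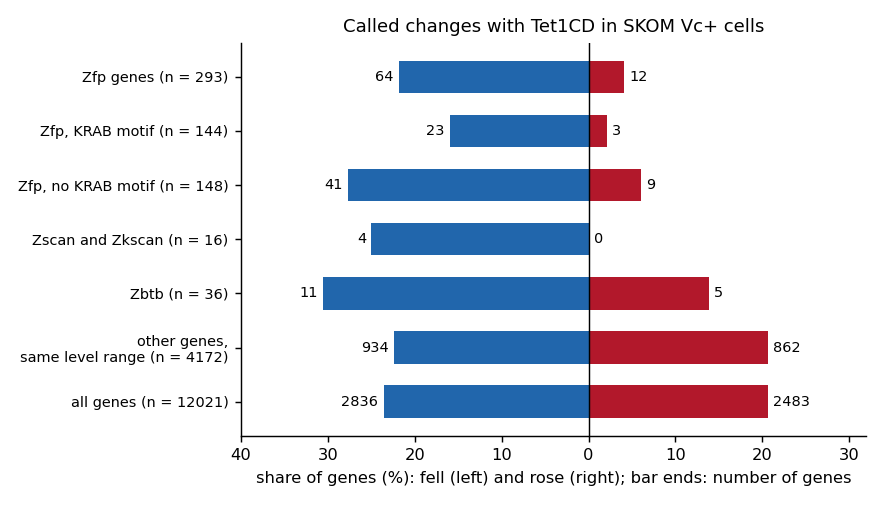
Percent of genes that fell (left of 0) or rose (right of 0) with Tet1CD in Vc+ SKOM cells, for Zfp members, all genes tested, members with and without a KRAB motif, other genes at the members' level and the compared families, with gene numbers at the bar ends. Members fell in 21.8% and rose in 4.10%, against 23.6% and 20.7% of all genes.

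The corepressor machinery that KRAB proteins work through changed as well. Of 23 genes listed, 13 fell and 2 rose in Vc+ cells, with a median of -0.41. Over all genes 23.6% fell and 20.7% rose. Trim28, the corepressor that KRAB boxes bind, had values of 1345, 1546 and 1178 with Tet1CD, against 2500, 3013, 2830 and 3167 without it. The groups were far apart, with a change of -1.04 ± 0.10 (adjusted p = 0.00102). The HP1 genes Cbx3, Cbx5 and Cbx1 fell by 1.00, 0.85 and 0.58, and the H3K9 methyltransferase gene Setdb1 fell by 0.44. Uhrf1, Dnmt1, Dnmt3b and Suv39h1, which act in DNA methylation or H3K9 methylation, fell by 0.96 to 1.21. Dnmt3b had values of 15, 25 and 21 with Tet1CD, against 48, 53, 55 and 55 without it. It met the minimum of 32 only through libraries without Tet1CD. Its fall, counted in the 13, is therefore partly set by the listing. Atf7ip, which stabilises Setdb1, rose by 0.72 ± 0.08 (adjusted p = 0.00145), and Suv39h2 rose by 1.87 ± 0.28 (adjusted p = 0.00379).

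Of 7 listed members known for silencing imprints or retroelements, 2 fell (Zfp445 by 0.51 and Zfp568 by 0.34 on the log2 scale) and 1 rose (Zfp809) in Vc+ cells, or 28.6% and 14.3%, against 23.6% and 20.7% of all genes. Zfp57, which holds methylation at imprinted loci, had values of 302, 332 and 362 with Tet1CD, against 287, 339, 376 and 336 without it. These groups overlap fully, with a change of 0.00 ± 0.09 (adjusted p = 0.976). Zfp708 changed by 0.96 ± 0.45 (adjusted p = 0.126), with reads that cannot be told from those of other genes, and Zfp932 by -0.35 (adjusted p = 0.0771).

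Of 8 listed members linked to pluripotency or reprogramming, 5 fell and 0 rose, or 62.5% and 0%, against 23.6% and 20.7% of all genes. Besides Zfp296, which met the minimum only without Tet1CD, these were Zfp217, which binds the RNA methyltransferase Mettl3 in embryonic stem cells, Zfp281, a regulator of Nanog, Zfp462 and Zfp266. Zfp217 (chromosome 2, 170108643 to 170148103, minus strand) had values of 406, 390 and 425 with Tet1CD, against 618, 654, 590 and 633 without it. Its 2 groups were each narrow and apart, and the change was -0.60 ± 0.09 (adjusted p = 0.00435). Zfp281 had values of 193, 203 and 182 against 261, 262, 259 and 264, a change of -0.43. Zfp266, with 374, 439 and 445 against 618, 625, 571 and 629, changed by -0.53, and Zfp462, with 898, 969 and 1180 against 1227, 1282, 1271 and 1366, by -0.32. The other 3 did not pass: Zfp553 at -0.33 (adjusted p = 0.0605), Zfp322a at -0.36 (0.0887) and Zfp143 at -0.23 (0.246).

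The other role lists were short, and their counts are read against the same 23.6% and 20.7% of all genes. Of 7 listed members with roles in mesenchyme, fat or bone, Zfp503 and Zfp703 rose and Zfp521 and Zfp516 fell, by 0.41 each (28.6% in each direction), and Zfp423, a determinant of preadipocytes, was at -0.05 (adjusted p = 0.805). Of 9 listed members that act on RNA, ribosomes or the spindle, Zfp36 rose, and Zfp207, Zfp326 and Zfp830 fell by 0.57, 0.44 and 0.43, so 33.3% fell and 11.1% rose. Zfp598, a ubiquitin ligase at collided ribosomes, was at -0.29 (adjusted p = 0.0697). Both p53-linked members, Zfp365 and Zfp385a, rose, and of 3 listed neural members Zfp804a fell.

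Without vitamin C, few Zfp genes changed with Tet1CD. Of 235 members 3 rose and 1 fell, against 7.25% and 7.38% of all genes, and the median change was -0.01 in members and -0.01 over all genes. Zfp703 had values of 141, 161 and 175 with Tet1CD, against 117, 105, 136 and 115 without it, which do not overlap, and rose by 0.40 ± 0.09 (adjusted p = 0.0361). Zfp46 rose by 0.34 ± 0.08 (adjusted p = 0.0412) and Zfp219, a cofactor of Sox9, by 0.28 ± 0.07 (adjusted p = 0.0455). Zfp511 had values of 63, 67 and 56 against 82, 95, 83 and 80, without overlap, and fell by 0.45 ± 0.10 (adjusted p = 0.0332). The counts rested on single libraries: without Dnmt1, Tet1CD+Dmnt1, shDnmt1 or Tet1CD+shDnmt1 0 members were called, and without Flag+shLuc or Tet1CD 9 fell. All 3 libraries with Tet1CD lay below all 4 others for 23 members (9.79%, against 15.7% of all genes) and above them for 12 (5.11%, against 15.3%). Trim28 fell by 0.36 in this medium. Summed markers also differed here, with 541 to 633 against 258 to 337 for macrophages (3 of 8 listed) and 2756 to 3504 against 3762 to 5453 for proliferation, and their part was not tested.

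Over both media together, 37 of 235 members fell and 8 rose with Tet1CD, where 24.9% of all genes fell and 20.3% rose. The median change was -0.11 in members and -0.04 over all genes. Zfp703 (0.63 ± 0.13, adjusted p = 0.00216) and Zfp697 (0.61 ± 0.13, adjusted p = 0.00357) had the largest rises, followed by Zfp36, Zfp503, Zfp93, Zfp651, Zfp9 and Zfp52. Zfp41 (-1.14 ± 0.24, adjusted p = 0.00323), Zfp804a (-0.84) and Zfp7 (-0.65 ± 0.11, adjusted p = 0.000826) had the most negative changes, then Zfp292, Zfp395, Zfp422, Zfp428 and Zfp808. The smallest adjusted p among these 8 belonged to Zfp7. Without the Vc+ library labelled Dnmt1 21 members fell, without the Vc+ Flag+shLuc library 24, and without all libraries carrying a Dnmt1 label 6 fell and 2 rose.

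The effect of Tet1CD differed between the media for 22 of 235 members by a test of the difference itself. It was more positive in Vc+ than in Vc- medium for 6 and more negative for 16, against 8.57% and 8.28% of all genes. Zfp750 had the largest difference, at 2.04 ± 0.28 (adjusted p = 0.00249): in Vc- its values were 34, 24 and 33 with Tet1CD, against 36, 41, 49 and 34 without it. Those groups touch and lean down (-0.41, adjusted p = 0.176), whereas in Vc+ the same gene rose. The other 5 were Zfp365 (0.62 ± 0.11, adjusted p = 0.00761), Zfp697 (0.60 ± 0.18, adjusted p = 0.0497), Zfp36 (0.53 ± 0.12, adjusted p = 0.0169), Zfp651 (0.47 ± 0.14, adjusted p = 0.0460) and Zfp385a (0.39 ± 0.12, adjusted p = 0.0478).

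On the other side, Zfp41 differed by -1.16 ± 0.27 (adjusted p = 0.0194). Its Vc- values were 31, 26 and 21 with Tet1CD against 41, 44, 36 and 43. They were also without overlap but had a smaller change of -0.56 (adjusted p = 0.0779). In Vc- as in Vc+ medium, Zfp41 met the minimum of the table only through libraries without Tet1CD. The gap and the fall in Vc- are therefore also partly set by the listing. Zfp217 differed by -0.74 ± 0.14 (adjusted p = 0.00833), with Vc- values of 370, 272 and 354 against 297, 289, 312 and 327 that overlap. Zfp141 (-0.71, adjusted p = 0.0481), Zfp629 (-0.67, adjusted p = 0.0370), Zfp930 (-0.67, adjusted p = 0.0220), Zfp692 (-0.65, adjusted p = 0.0417), Zfp386 (-0.64, adjusted p = 0.0491) and Zfp251 (-0.62, adjusted p = 0.0239) followed. Of these 16, 4 had a KRAB motif, which 145 of the 294 members with a reading frame carry. Members with the motif had larger standard errors in the Vc+ fit, so fewer calls are not by themselves smaller differences. Leaving out a single library gave 2 to 7 more positive and 3 to 30 more negative differences, and each of the 12 libraries other than shp53+shDnmt1 moved the second count by more than 1.5 times. The counts were lowest, 2 and 3, without Vc- shDnmt1 or Vc- Tet1CD+shDnmt1, and the 30 came without Vc+ shDnmt1 or Vc+ Tet1CD+shDnmt1. Without the libraries carrying a Dnmt1 label 0 and 0 passed (153 and 109 of all genes).

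Across the 235 members, the changes in the media had a Pearson correlation of 0.34, against 0.60 across 10710 genes, given as a description since genes are not independent. The fits share no library. Zfp703 was the only member that rose in both media, and 0 fell in both, where 569 and 618 of all genes did. Of the 54 members listed in both media that fell in Vc+, 34 were below 0 in Vc-, against 2291 of 2620 over all genes, a larger share.

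**Figure D4:**
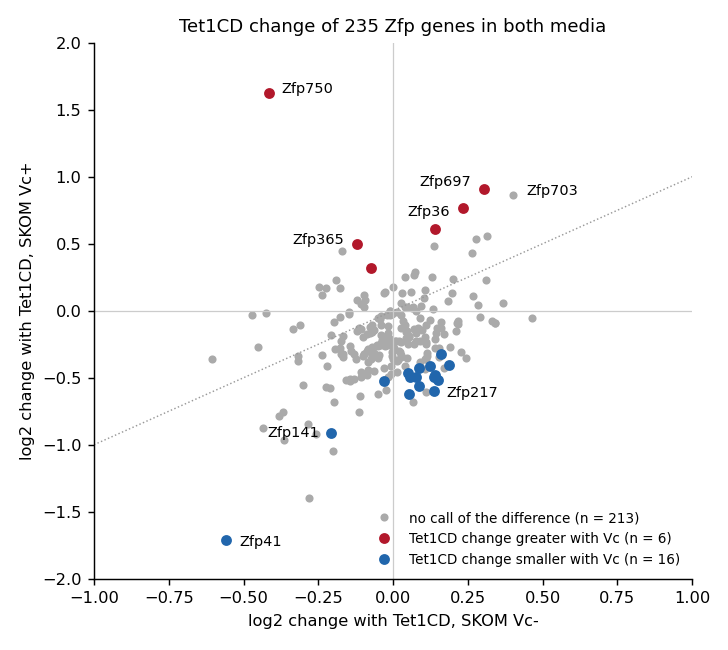
Log2 change with Tet1CD in Vc- medium (horizontal axis) against that in Vc+ medium (vertical axis) for the 235 members listed in both, each point a gene, with members in colour whose difference passed the test and a dotted line of equal change. The points spread along the vertical axis more than along the horizontal one, with Zfp750 at the top and Zfp41 at the bottom.

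The other constructs gave no call among members in SKOM cells. For shDnmt1, libraries labelled Dnmt1 and shp53, 0 of 235 members passed limma's threshold in either direction, where 0.0187% of all genes fell and 0% rose for shDnmt1, 0% for Dnmt1 in both directions, and 0.00934% fell and 0% rose for shp53. At an unadjusted p under 0.05 there were 9, 6 and 12 members (383, 84 and 1129 of all genes). The smallest p for shDnmt1 was that of Zfp534 (1.69 ± 0.42, adjusted p = 0.634), a gene whose reads are shared with others and which in Vc+ cells had a value of 65 with shDnmt1 and 0 with Tet1CD, against 13 with Flag+shLuc. It also had the smallest p for the Dnmt1 label (1.86 ± 0.42, adjusted p = 1). Zfp57 was at 0.27 ± 0.10 (adjusted p = 1) for shDnmt1. For shp53 the smallest p belonged to Zfp637 (0.43 ± 0.12, adjusted p = 0.335), and Zfp36 was at -0.54 ± 0.20 (adjusted p = 0.406).

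Tables were normalized separately, so cells of different tables were compared by the ratio of libraries with the same construct, centred on the median of each pair and without a test. Between Vc+ and Vc- medium, 1 of 235 members was higher by a median of at least 2-fold with all 7 pairs going one way, and 0 were lower (0.392% and 0.215% of all genes). This was Zfp961 (chromosome 8, 71951038 to 71993792, plus strand). It had values of 193, 227 and 198 with Tet1CD and 174, 180, 194 and 185 without it in Vc+ cells, against 52, 43 and 50 and 52, 62, 58 and 65 in Vc- cells, and the median log2 ratio was 1.09 (pairs 0.87 to 1.75). The median over members was 0.05.

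Several members differed between reprogramming cells and MEFs. Between SKOM Vc- cells and MEFs, 11 of 230 members were higher by a median of at least 2-fold with all 5 matched pairs going one way, and 4 were lower (6.02% and 7.46% of all genes), with a median of 0.20 in members and 0.00 in all genes. Zfp704 (chromosome 3, 9427020 to 9610085, minus strand) had values of 974 with Tet1CD, 716 with Flag+shLuc, 816 with Dnmt1, 861 with shDnmt1 and 918 with shp53+shDnmt1 in SKOM Vc- cells, against 154, 187, 172, 180 and 163 in MEFs. All SKOM libraries were far above all MEF libraries, and the median log2 ratio was 2.50 (2.18 to 2.91). Zfp141 (1.52), Zfp711 (1.51), whose human counterpart is linked to X-linked intellectual disability, Zfp41 (1.42) and Zfp7 (1.30) came next. Zfp7 had values of 155, 156, 184, 181 and 205 in the SKOM Vc- libraries, against 67, 76, 90, 82 and 100 in the matched MEF libraries.

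The 4 members lower in SKOM Vc- cells were Zfp9 (-1.74, pairs -1.91 to -0.88), Zfp36 (-1.56), Zfp703 (-1.18) and Zfp639 (-1.18). Zfp36 had values of 186, 156, 120, 165 and 127 in SKOM Vc- cells, against 535, 570, 528, 625 and 395 in MEFs, and Zfp9 had values of 60, 44, 40, 49 and 41 against 141, 193, 199, 176 and 199. Neither gene had overlapping groups. Between SKOM Vc+ cells and MEFs, 16 of 247 members were higher and 6 lower (6.72% and 10.8% of all genes), again led by Zfp704 (2.54), Zfp41 (2.03), Zfp7 (1.71), Zfp141 (1.62) and Zfp961 (1.43) on one side and by Zfp9 (-1.75), Zfp36 (-1.69), Zfp703 (-1.61), Zfp503 (-1.56) and Zfp28 (-1.39) on the other.

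Of the 11 members higher in SKOM Vc- cells than in MEFs, 8 fell with Tet1CD in Vc+ cells, and of the 4 lower ones, 3 rose (Zfp9, Zfp36 and Zfp703). Over all genes the counts were 286 of 617 and 544 of 764, or 46.4% and 71.2%. The ratio of SKOM Vc- to MEF and the Tet1CD change in Vc+ had a Pearson correlation of -0.47 across the 230 members and -0.42 across 10238 genes, from fits without a common library.

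**Figure D5:**
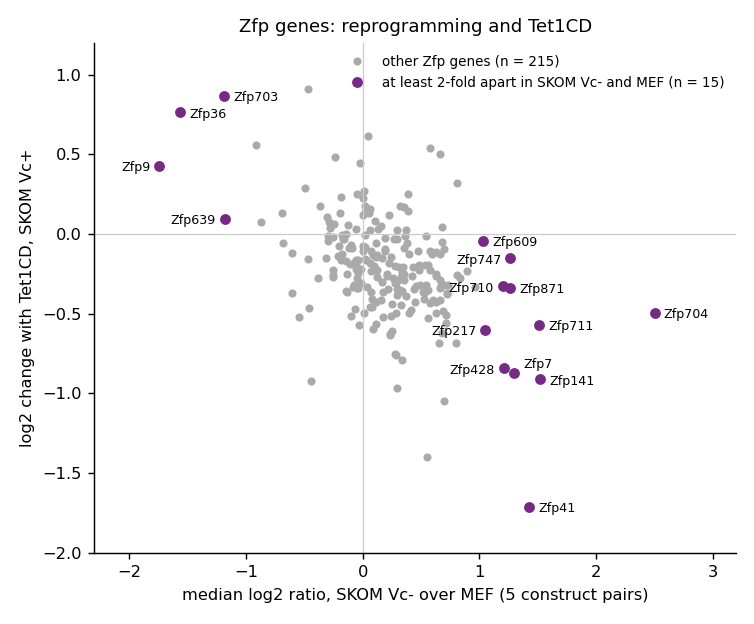
Median log2 ratio of SKOM Vc- cells to MEFs (horizontal axis) against the log2 change with Tet1CD in Vc+ SKOM cells (vertical axis), each point one of the 230 members in all 3 tables, with the 11 higher and 4 lower members in purple. Points run from upper left, with Zfp9, Zfp36 and Zfp703, to lower right, with Zfp41, Zfp141 and Zfp7, with a Pearson correlation of -0.47.

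In MEFs each combination of constructs had 1 library, and few members passed the sizes used. Of 192 members with a mean of at least 50, none was past a 2-fold difference with Tet1-CD (1.56% of all genes were higher and 1.49% lower) or with the Dnmt1 label (0.242% and 0.212%), and none was past a log2 ratio of 0.58 in both shDnmt1 pairs (0.433% and 0.534%). Zfp41 had 8 with Tet1-CD against 19 with Flag+shLuc, both at low values. Zfp36 had 535 against 570 and Zfp703 310 against 365, so neither was higher in the MEF library labelled Tet1-CD. Tet1 itself had no listed value in MEFs, so that construct could not be checked there.

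With the p53 hairpin, 3 members were higher and 3 lower in both MEF pairs (5.91% and 6.26% of all genes). Zfp365, known from human cells as a p53-induced gene, had values of 113 with shp53 and 125 with shp53+shDnmt1, against 281 with Flag+shLuc and 256 with shDnmt1. Both knockdown libraries were below both others, with a mean log2 ratio of -1.14 (pairs -1.28 and -1.01). Zfp369 (-0.74) and Zfp36 (-0.62) were also lower. Zfp367 had values of 186 and 145 against 99 and 68, a ratio of 0.96, and Zfp395 (0.87) and Zfp101 (0.69) were higher as well. No p-value is given, since there was 1 library per combination.

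The library labelled 5C stood apart from the MEF libraries. Its column header names a day and theirs do not, and the part of time in these values was not tested. Against MEF Flag+shLuc, 26 of 192 members were at least 2-fold higher and 56 lower (20% and 27.4% of all genes), with a median of -0.33 in members and -0.15 in all genes. Zfp146 had a value of 19 against 642, and Zfp36 had 98 against 570. Zfp445, Zfp458, Zfp712 and Zfp955a were listed at 0, against values of 63 to 113 in the control. Zfp444 (237 against 43), Zfp521 (925 against 181), Zfp771 (371 against 73), Zfp286 (168 against 31) and Zfp874b (178 against 36) had log2 ratios of 2.16 to 2.33. The mean of at least 50 was taken over all 7 libraries, 5C included. Zfp286 and Zfp874b had means of 43.3 and 46.7 in the other 6. Zfp874a, Zfp113, Zfp932 and Zfp748, also counted as higher, had means of 42.3, 43, 47.5 and 48.8 there. All of these passed only through 5C. The 26 higher members include them, and such rises are partly set by that minimum. In all, 9 members were at 0 in this library and 0 were in MEF Flag+shLuc.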

How the data were processed

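Total RNA of 21 libraries was extracted with Trizol and made into libraries with a TruSeq RNA kit, per the labels' protocols. Bowtie, RSEM and mm10 are named, without versions, per the submitters' processing notes. How they were normalized is not given in the sources used here. Each deposited value is a score: whole numbers that the authors had normalized within each of 3 tables, with the same or nearly the same median in the libraries of a table. Depth is therefore unknown, so there is no counting error, and a 0 means only that a gene is listed at 0. All value columns were used, and groups were taken from the sample titles.

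Genes whose mean reached 10 were fitted on the log2(value + 5) scale in R 4.3.3 with limma 3.58.1, using eBayes and its trend option. P-values were adjusted over all genes (Benjamini-Hochberg) and called under 0.05. One model for the 14 SKOM libraries took Tet1CD, shp53, shDnmt1, Dnmt1 and vitamin C as terms (8 residual degrees of freedom, 4 with medium terms added), and each SKOM table was also fitted alone (2). Within a table the Tet1CD effect is the mean over 3 matched pairs of libraries. The fits were tested on simulated data. Library pairs of different tables were centred on their median ratio and counted without a test at a median of at least 1 on the log2 scale. In MEFs, genes with a mean of at least 50 were used, with a log2 ratio of 0.58 in both pairs for the hairpins and of 1 for single libraries.

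Positions and transcript lengths came from GENCODE M21, with the longest transcript of each gene. C2H2 and KRAB motifs were searched in translated M21 coding sequences, in place of the RefSeq proteins first planned. The C2H2 pattern was cysteine, 2 to 4 residues, cysteine, 12 residues, histidine, 3 to 5 residues, histidine. Promoters are RefSeq's. Members named are the 8 with the largest changes per direction in tested comparisons (4 with the smallest p where none passed), the 5 largest ratios elsewhere, the 10 highest per kilobase and those of 6 role lists; others, such as Zfp142 and values of a named member in a further comparison, were chosen after their values were seen. Members and lists were chosen with earlier results of these data known. Alternatives covered the pseudocount, low-value filter, trend, centring, renormalization, thresholds and each library left out.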

Additional observations from a re-analysis of the deposited data

Results flagged for a closer look

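The change with Tet1CD differed between Vc+ and Vc- medium, by limma's test of the difference itself, for these named members. Each value is the change in Vc+ minus that in Vc-, on the log2 scale. More positive in Vc+ were Zfp750 (2.04), Zfp365 (0.62), Zfp697 (0.60), Zfp36 (0.53), Zfp651 (0.47) and Zfp385a (0.39). More negative were Zfp41 (-1.16), Zfp217 (-0.74), Zfp141 (-0.71), Zfp629 (-0.67), Zfp930 (-0.67), Zfp692 (-0.65), Zfp386 (-0.64) and Zfp251 (-0.62). Zfp217 was at -0.60 in Vc+ and 0.14 in Vc-, and Zfp365 at 0.50 in Vc+ and -0.12 in Vc-. The marker sums that differed between libraries with and without Tet1CD differed more in Vc+ than in Vc- medium, and their part in these values was not tested.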

How the results depend on the processing

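No paired analysis was possible because the labels give no replicate numbers to use as a block; the library pairs in the text match constructs, not replicates. Among members named for the largest changes or smallest p in tested comparisons, every change kept its sign in each alternative. Counts of members were scored only as same or moved, so a reversal could not show there. In Vc-, 3 members rose and 1 fell in the main fit, but 9 fell without Flag+shLuc or without Tet1CD. Leaving out the libraries labelled Dnmt1, chosen after seeing the data, left 2 members that rose and 6 that fell over both media. The counts left were 0 and 0 for the difference between media, 0 and 0 in Vc- and 5 and 11 in Vc+. Without the intensity trend, 10 members had a more negative difference and 0 rose in Vc-; with a mean of at least 50, 3 fell in Vc-. For Vc+ over Vc-, 0 members were higher at a pseudocount of 16 and 2 at a median of 0.58. At 0.58, 43 members were higher and 8 lower for SKOM Vc- over MEF, and 52 and 11 for SKOM Vc+ over MEF. In MEFs with a mean of at least 10, 1 member was lower with shDnmt1, and 1 was higher and 2 lower with Tet1CD. With shp53, 5 were higher at a pseudocount of 1 and 0 at a threshold of 1, and 1 was lower at a pseudocount of 16 and 1 at a threshold of 1. At 0.58, 1 was higher and 7 lower with Tet1CD, 2 higher with the Dnmt1 label and 43 higher in 5C. The cause of these moves was not tested.

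With each library left out in turn, members that rose and fell numbered 7 to 10 and 21 to 54 over both media, 3 to 12 and 10 to 73 in Vc+, 0 to 3 and 0 to 9 in Vc-, and 2 to 7 and 3 to 30 for the difference. The counts were 0 to 0 for shDnmt1, Dnmt1 and shp53. Counts over all genes are not given beside these ranges, so they do not tell members from the whole table. With each pair left out, they were 1 to 1 and 0 to 0 for Vc+ over Vc-, 10 to 12 and 4 to 6 for SKOM Vc- over MEF, and 11 to 15 and 6 to 6 for SKOM Vc+ over MEF. For named genes with a call, 330 values kept it and 12 lost it under the settings planned, and 406 kept it and 154 lost it with a library left out. The median change of members with Tet1CD in Vc+ stayed between -0.27 and -0.18. Each setting had 1 library per combination, and departures from additivity count as noise.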
